A study of Mus musculus with 36 samples.

Results

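The Hox genes encode homeodomain transcription factors and lie in 4 clusters, HoxA, HoxB, HoxC and HoxD. All gene entries named Hox with a cluster letter and a number were taken, 39 of the 23847 entries in each file. HoxA held 11 genes, HoxB 10, HoxC 9 and HoxD 9. The number in a name is the paralogue group: genes of 1 number descend from a common ancestral gene, and the 13 groups follow the order along each cluster. The groups fall here into 8 genes of groups 1 to 3, 15 of groups 4 to 8 and 16 of groups 9 to 13.

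RNA came from dissected guts of C57BL/6J mouse embryos of 3 stages (embryonic days, E10.5 first, then E12.5, then E14.5), labelled Ret null or wild type and by sex. Stage, genotype and sex make 12 groups of 3 libraries, 36 in all, with no further allele or treatment named. Poly(A) RNA was read on an Illumina HiSeq 2000 as 75 bp paired ends. Values are FPKM, fragments per kilobase of transcript scaled to depth, so levels of different genes may be set side by side. The labels do not say which stretch of gut a library holds or whether libraries came from separate embryos, and p-values measure the spread between these libraries, which may be technical.

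Along the vertebrate gut, as along the body axis, genes near the 3′ end of a cluster (low numbers) are used from anterior levels backwards, and genes near the 5′ end (high numbers) at posterior levels only. In the gut they act mainly in the mesenchyme around the endoderm, where Hoxd13 and Hoxa13 mark the hindgut and cloaca and Hoxa5 acts in foregut and stomach mesenchyme. Retinoic acid and the ParaHox factor Cdx2 act upstream of several Hox genes, and Hox proteins bind DNA together with TALE homeodomain cofactors of the Pbx, Meis and Pknox families. Ret is the receptor tyrosine kinase of the enteric neural crest, which enters the gut from the vagal neural tube. In mice and humans Hoxb5 has been studied as a regulator of Ret in those cells.

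Labels and libraries were checked first. Ret stood at 0.0111 to 0.0587 FPKM in 11 of 18 Ret null-labelled libraries, at 4.74 to 6.49 FPKM in the other 7 and at 2.11 to 13.3 FPKM in wild type. The 7 are the E10.5 females 1, 2 and 3, E12.5 male 2 and the E14.5 females 1 and 3 and male 1, so "labelled Ret null" below means the label. Sex-linked RNA did not match the labelled sex of 4 libraries (Ret null female 3 and male 1 of E10.5, wild-type females 1 and 2 of E12.5). The 2 of E12.5 held sex-linked RNA of both sexes. Xist, the RNA of the inactive X, stood at 49.1 and 52.2 FPKM and the Y-linked Ddx3y at 4.91 and 4.98 FPKM. In E12.5 wild-type female 3 they stood at 97.0 and 0.0133 FPKM. Whether the 2 libraries hold RNA of more than 1 embryo was not tested. In 4 pairs of libraries of a group (at E10.5 Ret null females 1 and 2, wild-type females 1 and 2 and wild-type males 3 and 4; at E12.5 wild-type females 1 and 2) the values differed by 0.929 to 1.13 times the counting noise. Each pair was counted as 1 sample, which left 32 samples (5 Ret null and 4 wild type at E10.5, 6 and 5 at E12.5, 6 and 6 at E14.5). The width of the deposited intervals corresponded to about 9300000 to 22700000 fragments per library at E10.5, 22900000 to 51400000 at E12.5 and 6800000 to 10700000 at E14.5. At E10.5 wild-type females were the deepest (17700000 to 22700000 fragments, with 9300000 to 13600000 in the other groups). In the E10.5 Ret null females 0% of FPKM values lay outside their own deposited interval, against 2.73 to 13.6% in the other libraries; whether this touches the E10.5 results was not tested. E14.5 wild-type male 2 held RNA of lung and heart: Sftpc, a surfactant gene of the lung, stood at 417 FPKM and Nppa, a gene of the heart atrium, at 304 FPKM, against at most 0.794 and 0.517 FPKM in the other 35 libraries. E14.5 wild-type female 1 had the highest level of the liver gene Alb (1014 FPKM). Results at E14.5 are also given without male 2.

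The genes sit on chromosomes 6 (HoxA), 11 (HoxB), 15 (HoxC) and 2 (HoxD) of mouse build mm10. Reads at overlapping entries cannot be assigned with certainty, since strand use in counting is not stated. Hoxa3 (chromosome 6, 52169062 to 52213067) spans Hoxa4, Hoxa5, Hoxa6 and the noncoding 2700086A05Rik. Hoxd3 (chromosome 2, 74711993 to 74748271) spans Hoxd4, the microRNA gene Mir10b and 1700109F18Rik. Hoxa11 overlaps Hoxa11as, and Hoxc5 overlaps Mir615.

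The 250 bases before the RefSeq start are shown for 4 genes the results return to (RefSeq, GRCm38.p6, 5′ to 3′ in the gene's direction): Hoxd3, which was low in E14.5 guts without Ret RNA, its neighbour Hoxd4, which was low in E10.5 guts labelled Ret null, Hoxa2, which was higher in the E14.5 libraries labelled Ret null, and Hoxa5, the Hox gene with the highest mean level. They lie at chr2:74711743-74711992 (plus strand), chr2:74721728-74721977 (plus), chr6:52164832-52165081 (minus) and chr6:52204588-52204837 (minus). Capitals mark matches on either strand to AGGTCA (the half-site of retinoic acid and other nuclear receptors), TTTATG (a Cdx site) or TGATNNAT (a joint Pbx and Hox site).
Hoxd3: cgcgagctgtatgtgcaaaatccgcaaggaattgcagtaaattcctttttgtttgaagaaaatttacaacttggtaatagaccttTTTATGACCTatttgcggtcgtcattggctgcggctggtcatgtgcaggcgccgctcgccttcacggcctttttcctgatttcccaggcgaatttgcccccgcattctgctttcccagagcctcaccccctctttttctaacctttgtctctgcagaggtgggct
Hoxd4: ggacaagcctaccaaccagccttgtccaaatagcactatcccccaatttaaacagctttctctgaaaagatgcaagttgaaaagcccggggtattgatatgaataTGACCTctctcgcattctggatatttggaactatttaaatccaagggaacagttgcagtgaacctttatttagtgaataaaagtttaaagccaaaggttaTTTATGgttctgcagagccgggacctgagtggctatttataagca
Hoxa2: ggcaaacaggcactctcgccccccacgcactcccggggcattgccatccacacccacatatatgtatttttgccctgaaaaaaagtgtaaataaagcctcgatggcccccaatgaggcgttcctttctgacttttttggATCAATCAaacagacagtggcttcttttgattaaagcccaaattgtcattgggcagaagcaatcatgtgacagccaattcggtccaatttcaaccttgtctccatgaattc
Hoxa5: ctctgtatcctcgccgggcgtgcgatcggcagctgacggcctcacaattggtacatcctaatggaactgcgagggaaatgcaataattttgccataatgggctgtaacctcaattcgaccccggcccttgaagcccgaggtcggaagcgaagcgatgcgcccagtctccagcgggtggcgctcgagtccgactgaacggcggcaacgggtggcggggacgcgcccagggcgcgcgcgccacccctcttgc
In Hoxd3 the 10 capitals hold TTTATG and, overlapping it by 2 bases, the reverse complement of AGGTCA. Hoxd4 has the same 2 motifs apart from each other, Hoxa2 has 1 match to TGATNNAT on the reverse strand, and the Hoxa5 window has none of the 3. Promoter windows of 300 bases, which add 50 bases after the start, were at hand for 22 of the 39 genes. Only the 250 bases before the start were searched in these windows. AGGTCA was in those of 6 genes (Hoxb4, Hoxc4, Hoxd3, Hoxd4, Hoxd8 and Hoxd10) and in 14.0% of all 32851 windows. TTTATG was in those of 5 genes (Hoxa7, Hoxb8, Hoxd3, Hoxd4 and Hoxd11) and in 10.8% of all windows. TGATNNAT was in those of 4 (Hoxa2, Hoxb1, Hoxb8 and Hoxd11) and in 7.68% of all windows. A match describes letters only.

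Hox RNA was present from nearly all groups, at moderate levels. Of the 39 genes, 36 reached 1 FPKM in at least 1 library and 19 did so in all 36: 5 of 8 in groups 1 to 3, 14 of 15 in groups 4 to 8 and 0 of 16 in groups 9 to 13. Hoxd1, Hoxc12 and Hoxc13 reached it in none; Hoxc12 was listed at 0 in 33 libraries and Hoxc13 in 25. The highest mean over the 36 libraries was that of Hoxa5 (23.9 FPKM, range 12.2 to 33.7), followed by Hoxb3 (20.0 FPKM, 14.0 to 26.8) and Hoxb2 (17.7 FPKM, 12.3 to 24.3), whose ranges overlap widely. Hoxb5 (12.6 FPKM), Hoxa4 (12.47), Hoxb6 (12.3) and Hoxa3 (11.96) came next and differed by less than their own spread. Within the paralogue groups the leading gene was Hoxb7 in group 7 (9.24), Hoxc8 in group 8 (10.2), Hoxd9 in group 9 (8.02), Hoxa10 in group 10 (10.9), Hoxd11 in group 11 (3.14), Hoxd12 in group 12 (1.24) and Hoxd13 in group 13 (3.04).

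The spread across libraries differed between genes. Hoxb3 and Hoxb2 stayed within 14.0 to 26.8 and 12.3 to 24.3 FPKM in all 36 libraries. Among the other low-numbered genes Hoxd3 ran over 1.12 to 24.3 FPKM and Hoxa4 over 3.38 to 22.4 FPKM. Hoxd9 ran over 0.303 to 28.4 FPKM, Hoxa10 over 0.339 to 28.5 FPKM and Hoxd13 over 0 to 19.4 FPKM. Summed FPKM of groups 1 to 3 ranged over 51.7 to 91.0, that of groups 4 to 8 over 91.4 to 192 and that of groups 9 to 13 over 3.74 to 147.

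**Figure D1:**
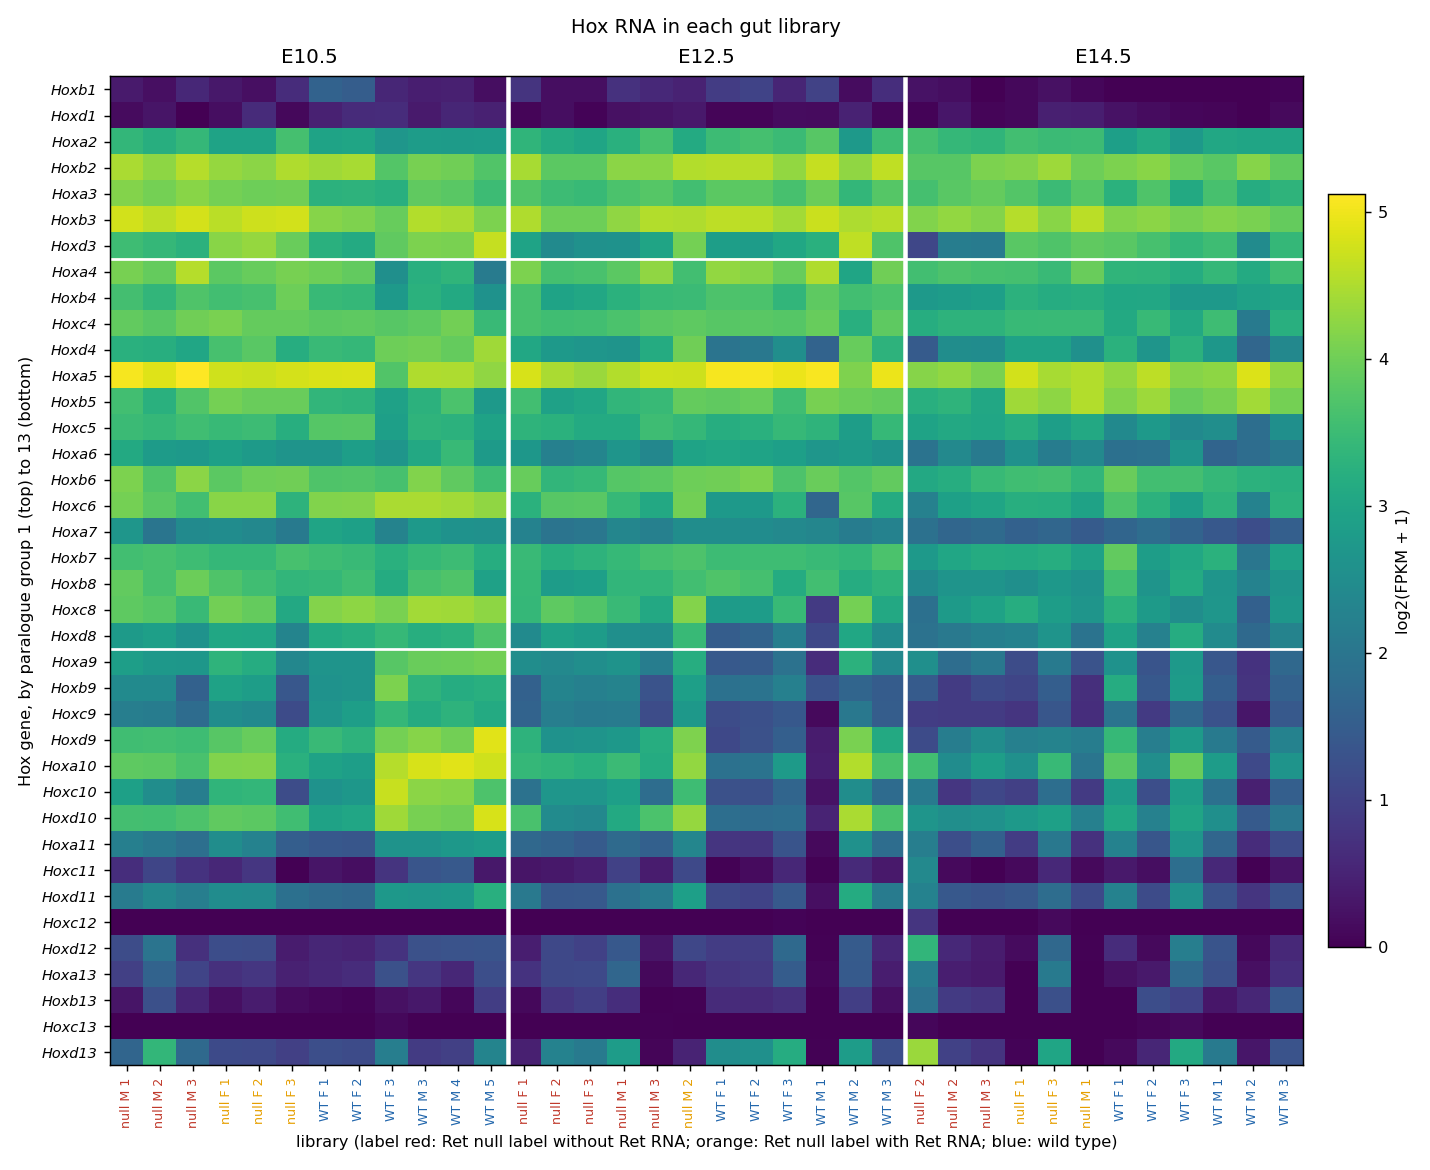
Level of 38 of the 39 Hox genes (rows, paralogue group 1 at the top to 13 at the bottom, white lines between groups 3 and 4 and groups 8 and 9) in each of the 36 gut libraries (columns, by stage and then by label), as log2(FPKM + 1) in colour. Rows of groups 9 to 13 differ from library to library within a stage and label, while Hoxb3 stays between 14.0 and 26.8 FPKM.

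The share of summed Hox FPKM that came from groups 9 to 13 varied widely within each group. At E10.5 it was 13.9 to 24.1% (median 21.7%) in the 6 Ret null-labelled libraries and 16.9 to 40.4% (median 32.1%) in the 6 of wild type. At E12.5 it was 15.6 to 26.7% (median 19.9%) in Ret null-labelled libraries and 1.49 to 30.4% (median 11.5%) in wild type. At E14.5 it was 7.03 to 34.2% (median 13.2%) in Ret null-labelled libraries and 5.55 to 30.4% (median 14.8%) in wild type, where it was 10.4% or more without male 2. The 2 labels overlapped at every stage. In bulk tissue, fewer cells of a type and less RNA per cell cannot be told apart.

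Markers of gut region also differed between libraries of 1 label, in part along with that share. The E12.5 wild-type males show the extremes: in male 1 groups 9 to 13 summed to 3.74 FPKM (1.49%), with Barx1, a factor of stomach mesenchyme, at 164 FPKM, Sox2, a factor of foregut and stomach epithelium, at 11.6 and Cdx2, a factor of intestinal epithelium, at 2.87 FPKM. In male 2 the sum was 102 FPKM (30.4%), with Barx1 at 0.229, Sox2 at 1.90 and Cdx2 at 21.4 FPKM. These 2 libraries carry the same label. In male 2 Hoxa5 stood at 16.4 FPKM, against 30.1 to 32.7 FPKM in the other 5 E12.5 wild-type libraries. At E10.5 the wild-type females 1 and 2 had shares of 17.0 and 16.9% with Barx1 at 38.3 FPKM in each, and wild-type male 5 had 39.6% with Barx1 at 0.651 FPKM. Wild-type female 3, with 40.4%, had Barx1 at 8.10 FPKM and Prrx1, a factor of limb and body wall mesenchyme, at 25.8 FPKM. Barx1 and the share did not always go opposite ways: E12.5 Ret null females 2 and 3 had Barx1 at 1.104 and 1.12 FPKM and shares of 20.1 and 19.7%. At E14.5 wild-type male 2 had the lowest share (5.55%) with Barx1 at 11.9 FPKM, and wild-type female 1 had 22.8% with Barx1 at 0.0858 FPKM. Cdx2 did not follow the share there, at 38.3 FPKM in wild-type female 2 (10.4%) and 12.3 FPKM in wild-type female 3 (30.4%). The urogenital markers Pax2 and Lhx1 were high in E14.5 wild-type females 1 and 3. Pax2 stood at 6.74 and 4.21 FPKM there and Lhx1 at 3.41 and 2.54 FPKM. In the other E14.5 libraries Pax2 was at most 0.110 FPKM and Lhx1 at most 0.331 FPKM. How much gut region or neighbouring tissue adds to each Hox result below was not tested.

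**Figure D2:**
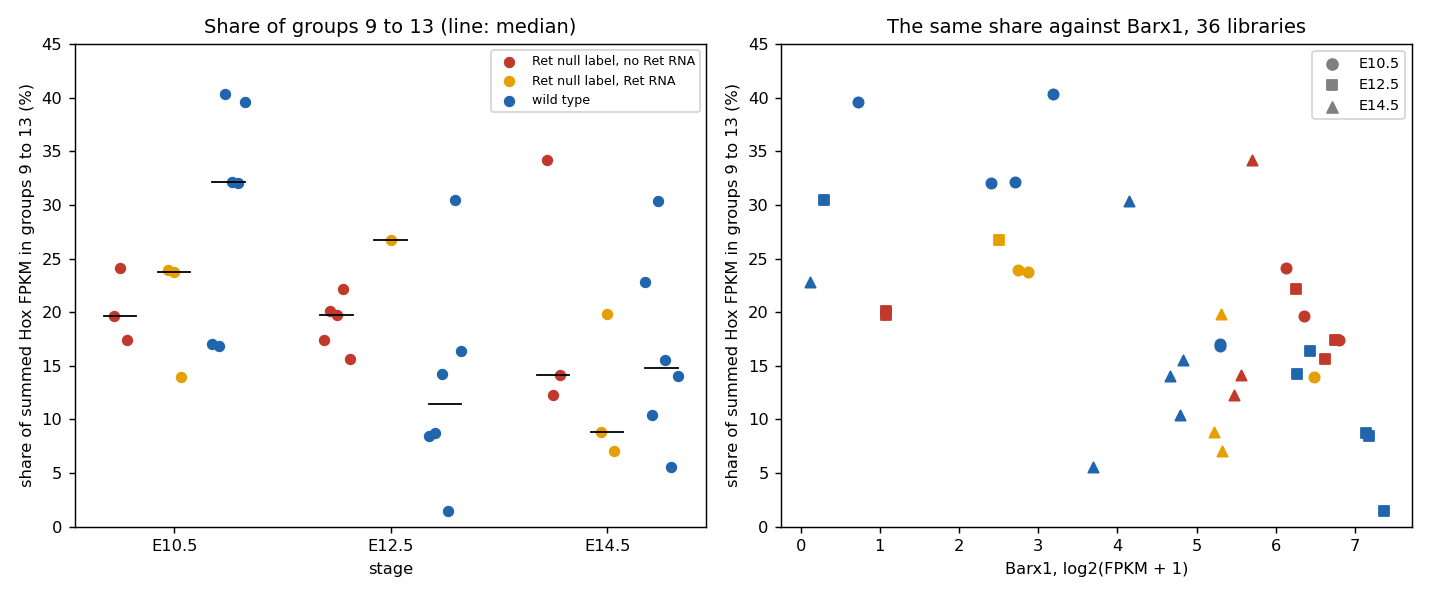
Left, share of summed Hox FPKM from paralogue groups 9 to 13 (percent) by stage, with each point a library, columns for libraries labelled Ret null without and with Ret RNA and wild type, and lines at the medians. Right, the same share against Barx1 as log2(FPKM + 1) with the same colours and symbols for stage; the lowest share (1.49%) stands at the highest Barx1 (164 FPKM), and E14.5 Ret null female 2 combines 34.2% with Barx1 at 51.0 FPKM.

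Group 12 and 13 genes, which pattern the hindgut, genital tubercle and limb end, varied widely from library to library. Their summed FPKM was 0.0276 to 35.8 across the 36 libraries. The highest was E14.5 Ret null female 2, with Hoxd13 at 19.4, Hoxd12 at 9.33, Hoxa13 at 3.37 and Hoxb13 at 2.82 FPKM. That library also had Hoxc11 at 4.28 and Hoxc12 at 0.739 FPKM, the noncoding HoxC RNA Hotair at 2.03 FPKM and Prrx1 at 26.1 FPKM. Without it, Hoxd13 in Ret null-labelled libraries at E14.5 was 0 to 7.08 FPKM, against 0.0885 to 7.61 FPKM in wild type. At E10.5 Hoxd13 was 9.46 FPKM in Ret null male 2, 0.948 to 2.38 FPKM in the other 5 Ret null-labelled libraries and 0.845 to 3.95 FPKM in wild type. At E12.5 Hoxd13 was 0.0537 to 6.09 FPKM (median 1.83) in Ret null-labelled libraries and 0.0205 to 7.93 FPKM (median 4.81) in wild type. Hoxd13, Hoxd12 and Hoxa13 were called in no comparison of genotype or stage. Hoxb13, tested at E14.5 and across stages, was not called either.

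At E10.5, in libraries labelled Ret null, genes of groups 2 to 5 lay above wild type and genes of groups 8 to 11 below it, as medians of the log2 fold change per group. By limma 5 of 33 tested genes were called, against a background of 8.29% of the 13165 genes tested (5.61% higher and 2.67% lower). The 2 higher were Hoxa3 and Hoxb3, which pattern the pharyngeal arches and hindbrain. Hoxa3 was 14.8 to 17.5 FPKM (median 15.5) in Ret null-labelled libraries and 8.39 to 13.7 FPKM (median 9.64) in wild type, with no overlap (log2 fold change 0.60, SE 0.0765, adjusted p = 0.00651). Hoxb3 was 23.1 to 26.8 FPKM in Ret null-labelled libraries and 14.1 to 21.9 FPKM in wild type, again without overlap (0.55, SE 0.0937, adjusted p = 0.0170). Reads of Hoxa3 may include those of Hoxa4 or Hoxa5, inside its span.

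The 3 lower were Hoxc9, Hoxd8 and Hoxd4. Hoxc9, a group 9 gene that sets thoracic identity in the body axis, was 1.25 to 4.69 FPKM in Ret null-labelled libraries and 5.37 to 9.67 FPKM in wild type (-1.20, SE 0.258, adjusted p = 0.0339). The E10.5 Ret null female 3 was the lowest. Hoxd8 was 3.99 to 7.29 FPKM in Ret null-labelled libraries and 7.78 to 11.9 FPKM in wild type (-0.66, SE 0.164, adjusted p = 0.0470). Hoxd4, a retinoic acid target in the hindbrain, was 7.13 to 12.9 FPKM in Ret null-labelled libraries and 9.61 to 19.8 FPKM in wild type, which overlap (-0.64, SE 0.158, adjusted p = 0.0476).

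The median log2 fold change at E10.5 was 0.45 over 6 tested genes of groups 1 to 3, 0.18 over 15 of groups 4 to 8 and -0.46 over 12 of groups 9 to 13, beside 0.00629 over all genes tested. By cluster, 7 of 8 HoxB genes had a positive fold change, while 4 of 6 HoxC and 6 of 8 HoxD genes had a negative one. Hoxb4 (0.68, adjusted p = 0.0553), Hoxb5 (0.61, adjusted p = 0.0646) and Hoxc8 (-0.63, adjusted p = 0.0621) missed the threshold, and were picked out after their values were seen. The 6 stomach and foregut markers summed to 22.5 to 143 FPKM in Ret null-labelled libraries and 16.1 to 70.3 FPKM in wild type, and 2 of 5 tested (Foxa2 and Sox2) were called higher. Of 6 limb and body wall markers 2 (Alx1 and Tbx5) were called lower, and all 5 of gut mesenchyme and smooth muscle higher. The 6 urogenital markers summed to 12.9 to 41.8 FPKM in Ret null-labelled libraries and 35.5 to 57.7 FPKM in wild type. The 6 of small intestine and colon summed to 14.7 to 24.5 FPKM in Ret null-labelled libraries and 8.09 to 9.96 FPKM in wild type. The 5 of pancreas and duodenum summed to 10.9 to 15.9 FPKM and 2.52 to 9.18 FPKM, both lists without overlap. The 2 blood markers summed to 422 to 784 FPKM and 701 to 2657 FPKM, which overlap. The part of any list in the Hox result was not tested. Over all genes tested 5.61% were called higher and 2.67% lower. The 5 gut mesenchyme and smooth muscle markers summed to 330 to 453 FPKM, against 92.1 to 187 FPKM in wild type. In E12.5 wild type they summed to 245 to 878 FPKM. In wild type at E12.5 against E10.5 the medians of groups 2 to 5 were also positive and those of groups 8 to 11 negative. Both contrasts share the E10.5 wild-type samples. A difference in developmental age between the labels was not tested.

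The E10.5 count rested on single samples. It was 1 without wild-type male 5, 11 without wild-type females 1 and 2, 8 without Ret null females 1 and 2, 2 without any 1 of the Ret null males or without wild-type female 3, and 3 without Ret null female 3 or wild-type males 3 and 4. It was 0 without the 3 libraries labelled Ret null that hold Ret, which leaves libraries labelled male only and has a background of 0.522% (0.453% higher and 0.069% lower), and 0 without the libraries that go against their sex label.

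**Figure D3:**
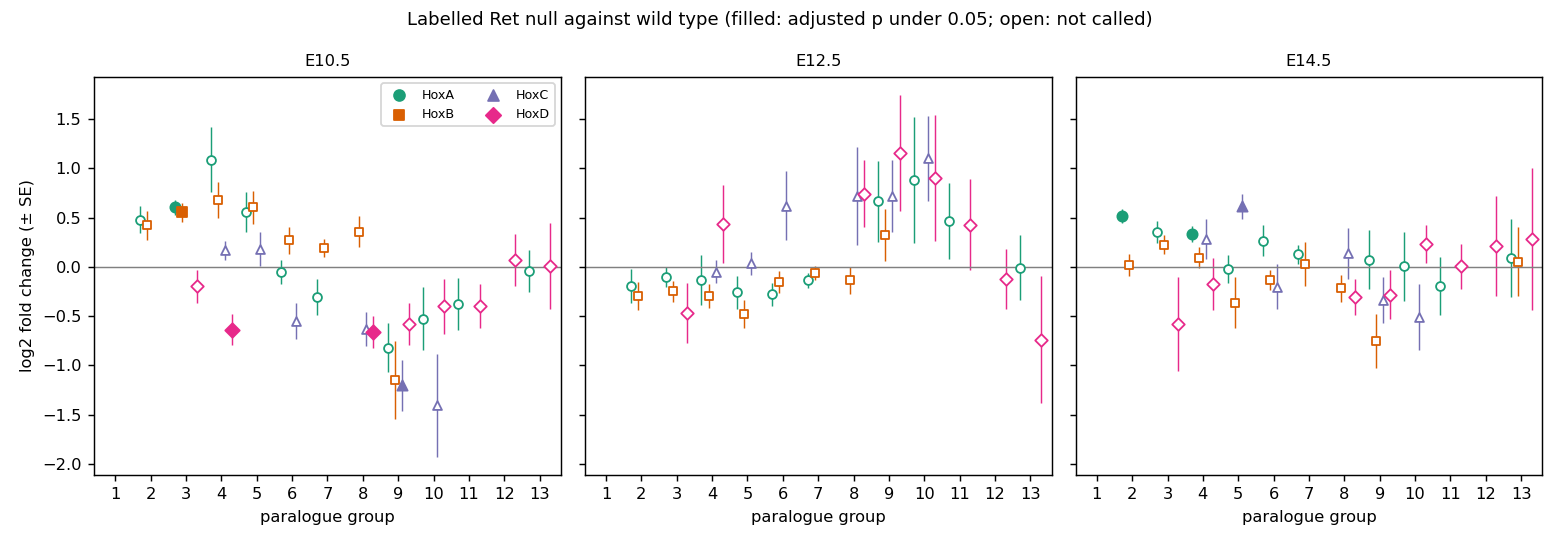
Log2 fold change with its SE (limma, on log2(FPKM + 1)) of the tested Hox genes drawn, labelled Ret null against wild type, by paralogue group, 1 panel per stage; symbols show the cluster, and filled symbols are genes with an adjusted p under 0.05. At E10.5 Hoxa3 and Hoxb3 are filled above 0 and Hoxc9, Hoxd8 and Hoxd4 below it, at E12.5 none is filled, and at E14.5 Hoxa2, Hoxa4 and Hoxc5 are filled above 0.

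At E12.5 no Hox gene passed the test. By limma 0 of 33 were called, with 5 at an unadjusted p under 0.05 (Hoxb3, Hoxb4, Hoxb5, Hoxa6 and Hoxc10), beside 0.00759% of the 13182 genes tested, of which 1115 had an unadjusted p under 0.05. Hoxb5 was 6.64 to 14.0 FPKM (median 9.64) in Ret null-labelled libraries and 10.7 to 15.7 FPKM (median 14.1) in wild type (-0.48, SE 0.138, adjusted p = 0.508). Hoxc10 was 2.54 FPKM or more (median 5.41) in Ret null-labelled libraries and 0.181 to 4.71 FPKM in wild type (1.102, SE 0.428, adjusted p = 0.573). The median log2 fold change was -0.22 in groups 1 to 3, -0.13 in groups 4 to 8 and 0.56 in groups 9 to 13, beside 0.00826 over all genes. The stomach and foregut markers summed to 19.0 to 133 FPKM in Ret null-labelled libraries and 6.13 to 202 FPKM in wild type.

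At E14.5, 1 anterior gene and 2 central ones were higher under the Ret null label. By limma 3 of 34 tested genes were called, all higher, against 15.7% of the 13861 genes tested (10.9% higher and 4.84% lower). Hoxa2, which sets the identity of the second pharyngeal arch, was 9.16 to 11.2 FPKM (median 10.3) in Ret null-labelled libraries and 5.68 to 7.77 FPKM (median 7.07) in wild type (log2 fold change 0.51, SE 0.0713, adjusted p = 0.00713). Hoxc5 was 6.27 to 8.24 FPKM in Ret null-labelled libraries and 2.61 to 5.71 FPKM in wild type (0.61, SE 0.126, adjusted p = 0.0154). Neither gene's groups overlapped, and wild-type male 2, the library with lung and heart markers, was the lowest for Hoxc5. Hoxa4 was 10.1 to 14.3 FPKM in Ret null-labelled libraries and 7.70 to 10.6 FPKM in wild type, with wild-type male 3 above the lowest Ret null library (0.34, SE 0.0832, adjusted p = 0.0258).

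Groups 9 to 13 had 0 of 13 genes called at E14.5 and a median log2 fold change of 0.00623, beside 0.0401 over all genes tested. The share called among Hox genes lay below that of all genes. The count of 3 was 5, with 4 higher and 1 lower, without wild-type female 2. Without wild-type male 2 the count was 3, with Hoxc5 at 0.50 (adjusted p = 0.0165), Hoxa2 at 0.51 (adjusted p = 0.0129) and Hoxa4 at 0.28 (adjusted p = 0.0378), and it was 3 without wild-type female 1. Stomach and foregut markers summed to 63.4 to 83.2 FPKM in Ret null-labelled libraries and 14.1 to 60.9 FPKM in wild type, without overlap, and 1 of 5 tested (Nkx6-3) was called higher (0 of 5 without wild-type male 2, with 3 at an unadjusted p under 0.05). The 6 small intestine and colon markers went the other way, also without overlap. They summed to 38.2 to 89.97 FPKM in Ret null-labelled libraries and 103 to 363 FPKM in wild type. The part of either list in the Hox result was not tested.

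In wild type, 5 genes of groups 9 and 10 and 3 of groups 4 to 8 were lower at E12.5 than at E10.5, and 1 gene of group 2 and 2 of group 4 were higher. By limma 11 of 35 genes were called, 3 higher and 8 lower, against 4.57% of the 14321 genes tested (2.75% higher and 1.82% lower). Hoxc10, a group 10 gene of lumbar levels, was 0.181 to 4.71 FPKM (median 1.79) at E12.5 and 5.14 to 24.9 FPKM (median 14.55) at E10.5 (log2 fold change -2.32, SE 0.511, adjusted p = 0.00928). Hoxd9 was 0.303 to 16.0 FPKM at E12.5 and 8.97 to 28.4 FPKM at E10.5 (-2.16, SE 0.479, adjusted p = 0.0100). All 4 group 9 genes were called, with Hoxc9 at -1.86, Hoxa9 at -1.70 and Hoxb9 at -1.52. The others lower were Hoxc6 (-1.39), Hoxd8 (-1.34) and Hoxd4 (-1.33).

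The 3 higher genes at E12.5 were Hoxa4, Hoxb4 and Hoxa2. Hoxa4 was 7.10 to 21.8 FPKM (median 16.4) at E12.5 and 3.38 to 14.9 FPKM (median 8.79) at E10.5 (0.98, SE 0.271, adjusted p = 0.0373). Hoxb4 was 9.37 to 13.4 FPKM at E12.5 and 5.11 to 9.89 FPKM at E10.5 (0.62, SE 0.159, adjusted p = 0.0264), and Hoxa2 was called at 0.61 (SE 0.154, adjusted p = 0.0223). The median log2 fold change was 0.31 in groups 1 to 3, 0.03 in groups 4 to 8 and -1.31 in groups 9 to 13, beside 0.00803 over all genes.

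The wild-type libraries of these 2 stages also differed in depth and in markers of region. Sox2 was called higher at E12.5 (1 of 5 stomach and foregut markers), the urogenital markers Emx2 and Wt1 lower (2 of 6) and the limb and body wall markers Alx1 and Prrx2 lower (2 of 6), with 4 of 5 gut mesenchyme and smooth muscle markers higher. Stomach and foregut markers summed to 6.13 to 202 FPKM at E12.5 and 16.1 to 70.3 FPKM at E10.5. The part of these markers in the result was not tested. Over all genes tested 2.75% were called higher and 1.82% lower in this step. The count of 11 was 1 without E10.5 wild-type female 3 and 3 without E10.5 wild-type male 5. It was 2 without E12.5 wild-type females 1 and 2, the pair with sex-linked RNA of both sexes. It was 7 without E12.5 wild-type female 3, E12.5 wild-type male 1 or the E10.5 pair of wild-type males 3 and 4. Without E12.5 wild-type male 2 it was 17 (4 higher and 13 lower). Hoxc9 was called in all 18 alternatives tried.

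In the libraries labelled Ret null 2 of 35 genes were called by limma in the same step, both lower, against 3.36% of the genes tested (2.48% lower). Hoxa3 was 9.87 to 12.7 FPKM at E12.5 and 14.8 to 17.5 FPKM at E10.5 (-0.46, SE 0.107, adjusted p = 0.0192). Hoxb3 was 14.9 to 21.9 FPKM at E12.5 and 23.1 to 26.8 FPKM at E10.5 (-0.42, SE 0.103, adjusted p = 0.0258). Neither gene's stages overlapped. The count of 2 was 0 without E10.5 Ret null females 1 and 2 or E12.5 Ret null female 2, and 1 without E10.5 Ret null female 3 or males 1 or 3, or without E12.5 Ret null female 3 or males 1 or 2. It was 0 without the Ret null-labelled libraries that hold Ret.

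The difference between the genotypes in that step was tested itself, and 4 of 35 genes were called (against 1.34% of all genes tested, 0.545% higher and 0.796% lower). The change was more negative in Ret null-labelled libraries for Hoxb4 (interaction -0.97, SE 0.214, adjusted p = 0.0239), Hoxb3 (-0.80, SE 0.154, adjusted p = 0.0105) and Hoxa3 (-0.71, SE 0.160, adjusted p = 0.0274). It was more positive for Hoxc9 (1.92, SE 0.473, adjusted p = 0.0411). The 4 values share the E10.5 and E12.5 samples with the contrasts above. A difference in developmental age between the labels at E10.5 would enter them and was not tested. The count was 0 without the Ret null-labelled libraries that hold Ret and 0 without those against their sex label. It was 9 without E12.5 wild-type male 2, 8 without E10.5 wild-type females 1 and 2, 2 without E10.5 Ret null male 3, E12.5 Ret null female 3 or E12.5 Ret null male 2, and 1 without E10.5 Ret null female 3, E10.5 wild-type female 3 or male 5, E12.5 Ret null female 2 or E12.5 wild-type females 1 and 2.

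Between E12.5 and E14.5 in wild type, 15 genes fell, all of them in groups 1 to 8. By limma they were 15 of 35 tested, against 58.9% of the genes tested (27.9% lower). They were 5 of 6 in groups 1 to 3, 10 of 15 in groups 4 to 8 and 0 of 14 in groups 9 to 13. By cluster they were 7 of 11 HoxA, 6 of 9 HoxB, 2 of 7 HoxC and 0 of 8 HoxD genes. The largest falls were those of Hoxc5 (-0.84), Hoxa6 (-0.83) and Hoxa7 (-0.81). Hoxa7, a trunk gene, was 1.32 to 2.58 FPKM at E14.5 and 3.45 to 4.68 FPKM at E12.5, without overlap (SE 0.121, adjusted p = 6.15e-06).

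Smaller falls in that step were called for Hoxb4 (-0.68), Hoxa4 (-0.65), Hoxc4 (-0.64), Hoxb8 (-0.56), Hoxb7 (-0.51), Hoxa2 (-0.47), Hoxa5 (-0.46) and Hoxb2 (-0.45). Hoxb3, Hoxb6 and Hoxa3 were called lower as well. The 6 genes of groups 1 to 8 that were tested and not called were Hoxd3 (-0.03), Hoxd4 (0.05), Hoxb5 (0.31), Hoxc6 (0.17), Hoxc8 (-0.31) and Hoxd8 (0.44). Hoxb5 was 14.4 to 20.1 FPKM (median 16.2) at E14.5 and 10.7 to 15.7 FPKM (median 14.1) at E12.5. The count of 15 stayed between 11 and 16 when any 1 sample was left out, and was 13 without E14.5 wild-type male 2. It was 8 without the libraries against their sex label, which include 2 of the 6 E12.5 wild-type libraries. Depth fell with stage here, to 6800000 to 9200000 fragments in wild type at E14.5, against 30100000 to 40400000 at E12.5.

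Markers of other cell types moved over the same step in wild type, where 31.0% of all genes tested were called higher and 27.9% lower. The 6 of small intestine and colon epithelium summed to 103 to 363 FPKM at E14.5 and 6.86 to 41.3 FPKM at E12.5 (5 of 6 called higher). The 5 of pancreas and duodenum summed to 48.9 to 389 FPKM at E14.5 and 0.461 to 15.4 FPKM at E12.5 (4 of 5 higher), and the 3 of epithelium to 274 to 499.7 FPKM at E14.5 and 98.5 to 148 FPKM at E12.5 (3 of 3 higher). None of these sums overlapped between the stages. Of 5 gut mesenchyme and smooth muscle markers 3 were higher and 1 lower, and both blood markers were lower (13.8 to 220.3 FPKM at E14.5 and 167 to 1058 FPKM at E12.5, which overlap). Stomach and foregut markers summed to 14.1 to 60.9 FPKM (median 49.3) at E14.5 and 6.13 to 202 FPKM (median 143) at E12.5, with 0 of 5 called by limma and 0 at an unadjusted p under 0.05. Their part in the Hox result was not tested.

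In the libraries labelled Ret null 8 of 35 genes were called between E12.5 and E14.5, all lower, against 35.0% of the genes tested (23.2% higher and 11.8% lower). Among them were Hoxc10 (-1.31), Hoxc9 (-1.07), Hoxb9 (-0.97), Hoxb8 (-0.64), Hoxa7 (-0.54), Hoxb7 (-0.42) and Hoxb6 (-0.35). Hoxc10 was 0.757 to 3.32 FPKM (median 1.04) at E14.5 and 2.54 FPKM or more (median 5.41) at E12.5. Hoxb8 was 4.37 to 5.67 FPKM at E14.5 and 6.14 to 10.9 FPKM at E12.5, without overlap, and was called in all 21 alternatives tried. The count was 4 without E12.5 Ret null male 2 and 3 without all libraries labelled Ret null that hold Ret. Here too intestinal epithelium (38.2 to 89.97 FPKM at E14.5 and 14.1 to 30.5 at E12.5), pancreas (46.9 to 114 and 9.85 to 16.9) and epithelium markers (265 to 335 and 74.2 to 168) summed higher at E14.5, with 5 of 6, 3 of 5 and 3 of 3 called higher. Both blood markers were lower, at a sum of 19.6 to 97.4 FPKM at E14.5 and 275 FPKM or more at E12.5. Their part in the Hox result was not tested.

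Tested as a difference between genotypes, that step gave 3 of 35 genes (against 17.4% of all genes tested, 11.2% higher and 6.19% lower). Hoxa2 (0.71, SE 0.191, adjusted p = 0.0164), Hoxb3 (0.48, SE 0.142, adjusted p = 0.0255) and Hoxa3 (0.46, SE 0.148, adjusted p = 0.0368) were less negative, or positive, in Ret null-labelled libraries. Hoxa2 was 9.16 to 11.2 FPKM at E14.5 and 7.02 to 11.3 FPKM at E12.5 in Ret null-labelled libraries. In wild type it was 5.68 to 7.77 FPKM at E14.5 and 5.79 to 12.8 FPKM at E12.5, where the wild-type male 2 was the lowest. The call of Hoxa2 held in all 31 alternatives tried. With the libraries rescaled to equal medians the 3 calls of that difference were 2 higher and 1 lower. Without E14.5 wild-type male 2 there were 4, 2 higher and 2 lower, and Hoxa3 was not among them (adjusted p = 0.0597). The count of 3 was 9 without E12.5 wild-type male 2, 7 without E14.5 wild-type female 2, 6 without E12.5 Ret null female 1 or male 3, and 5 without E14.5 Ret null female 3. It was 1 without E12.5 Ret null female 3 or male 1, E12.5 wild-type females 1 and 2 or E14.5 Ret null female 1.

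**Figure D4:**
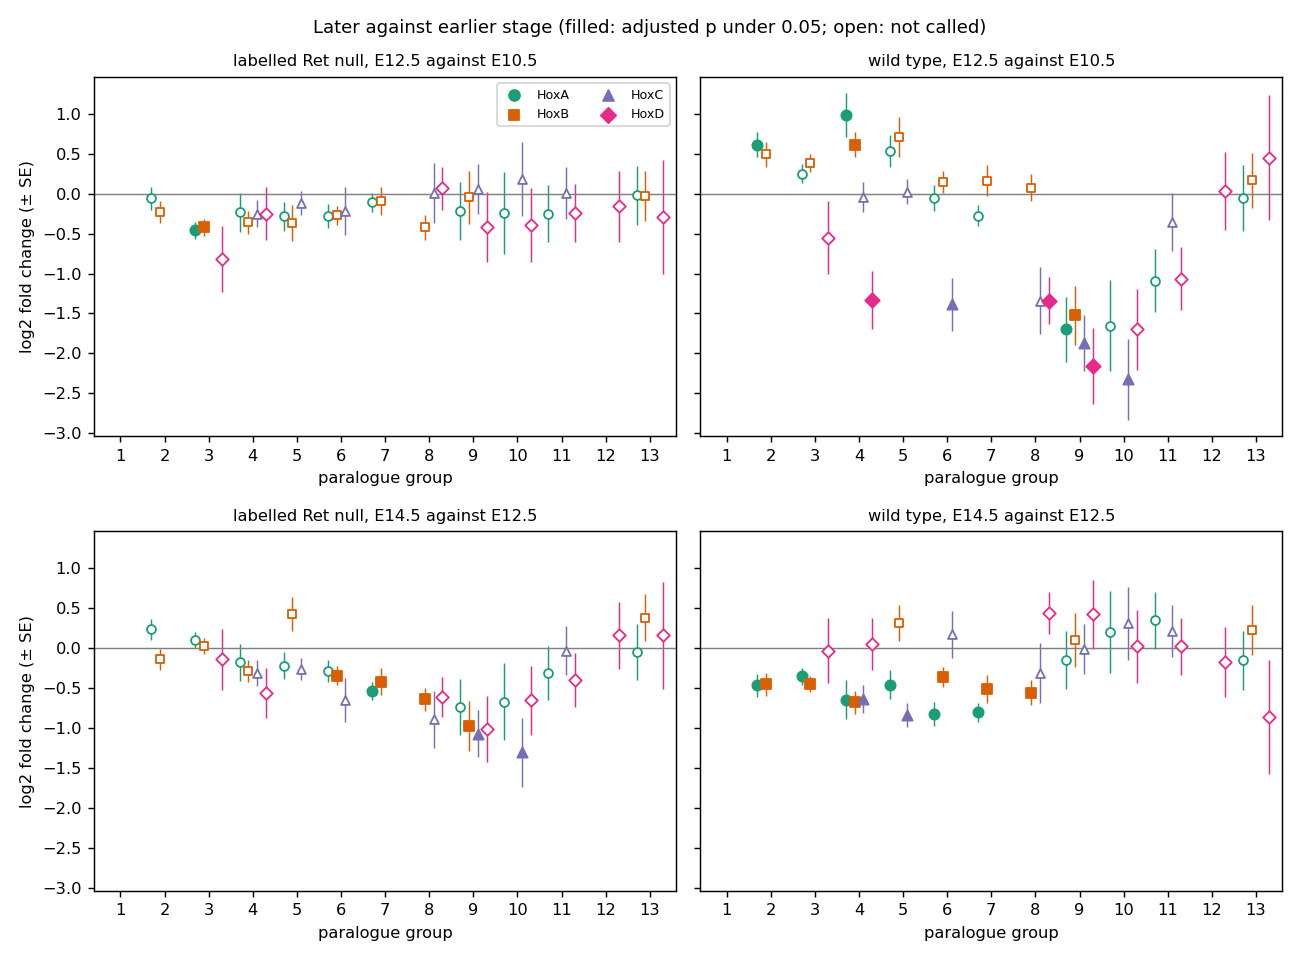
Log2 fold change with its SE (limma) of the tested Hox genes drawn between successive stages, later against earlier, by paralogue group, in libraries labelled Ret null (left) and wild type (right). In wild type the E12.5 against E10.5 panel has its lowest value at Hoxc10 (-2.32), and the E14.5 against E12.5 panel has filled symbols (adjusted p under 0.05) in groups 2 to 8 only.

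Ret RNA separated the E14.5 libraries labelled Ret null into 3 without it (female 2, males 2 and 3) and 3 with it (females 1 and 3, male 1), and Hoxb5 and Hoxd3, picked out after their values were seen, differed along that line. Hoxb5 was 8.39, 9.06 and 7.38 FPKM in the 3 libraries without Ret, 19.9, 18.0 and 22.0 FPKM in the 3 with Ret and 14.4 to 20.1 FPKM in wild type. Hoxd3 was 1.12, 3.50 and 3.39 FPKM in the 3 without Ret and 13.1, 12.1 and 13.5 FPKM in the 3 with Ret. In wild type it was 4.52 to 12.97 FPKM (9.50 FPKM or more without male 2). Reads of Hoxd3 may include those of Hoxd4, inside its span. Hoxd4 was 1.77, 4.70 and 4.63 FPKM without Ret, 6.76, 6.70 and 4.96 FPKM with Ret and 2.23 to 8.71 FPKM in wild type. Hoxb5 and Hoxd3 lay below every one of the 9 other E14.5 libraries in all 3 without Ret. These were 2 of the 34 tested Hox genes, beside 3.21% of all genes tested, and 0 lay above all 9, beside 2.82%. Because these libraries were set apart by Ret itself and not by their labels, no test was made between the 3 and the 3.

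Against the 3 libraries with Ret alone, 6 Hox genes lay lower without overlap (Hoxa5, Hoxb4, Hoxb5, Hoxc4, Hoxd3 and Hoxd4), beside 8.59% of all genes, and 1 higher (Hoxa7), beside 6.47%. Against wild type alone, 2 lay lower (9.44% of all genes) and 4 higher (16.3%), among them Hoxa2, Hoxa4 and Hoxc5. Hoxa2 and Hoxc5 were also higher than wild type in the 3 libraries with Ret, at 10.2 to 10.9 FPKM and 6.27 to 8.24 FPKM.

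With the 3 libraries that hold Ret left out, limma called 3 of the Hox genes at E14.5, beside 8.61% of the 13729 genes tested (3.96% higher and 4.65% lower). Hoxb5 was lower (-0.95, SE 0.133, adjusted p = 0.0135), Hoxd3 lower (-1.76, SE 0.237, adjusted p = 0.0122) and Hoxa2 higher (0.52, adjusted p = 0.0278). As labelled, Hoxb5 had a log2 fold change of -0.36 (adjusted p = 0.328) and Hoxd3 of -0.58 (adjusted p = 0.401). When Ret null female 2, the library with high Hoxd13, was left out as well, Hoxb5 stayed called (-0.97, SE 0.165, adjusted p = 0.0498), Hoxd3 did not (-0.98, SE 0.294, adjusted p = 0.145) and Hoxa2 did not (0.34, adjusted p = 0.194). When wild-type male 2 was left out in place of female 2, 5 Hox genes were called, among them Hoxb5 (-0.89, SE 0.122, adjusted p = 0.0123), Hoxd3 (-1.92, SE 0.116, adjusted p = 0.000511) and Hoxa2 (0.51, adjusted p = 0.0392). Both settings were chosen after the values were seen, as were Hoxb5 and Hoxd3. With only the 3 libraries that hold Ret left out, the share called among Hox genes was near that of all genes.

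The 8 enteric neural crest and neuron markers moved with the same libraries. They summed to 53.0 to 55.4 FPKM in the 3 E14.5 libraries without Ret, 194 to 200 FPKM in the 3 with Ret and 98.9 to 192 FPKM in wild type, and all but Hand2 lay below all 9 other libraries. Barx1 lay above all 9 other libraries in the 3 without Ret, at 43.3 to 51.0 FPKM. Their part in the Hoxb5 and Hoxd3 values was not tested.

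At E12.5 the 5 libraries labelled Ret null without Ret had Hoxb5 at 6.64 to 10.8 FPKM, male 2 with Ret had 14.0 FPKM and wild type had 10.7 to 15.7 FPKM. Hoxd3 was 4.43 to 6.89 FPKM in the 5, 15.6 FPKM in male 2 and 6.08 to 23.7 FPKM in wild type. Of the 33 tested Hox genes 0 lay wholly below or above wild type in the 5, beside 1.3% and 0.788% of all genes, and 0 below or above all 7 other libraries, beside 1.14% and 0.333%. Enteric markers again differed, with 6 of 8 below all 7 other libraries. By limma without male 2, 0 Hox genes were called, beside 0.259% of all genes (Hoxb5 -0.56, adjusted p = 0.258; Hoxd3 -0.68, adjusted p = 0.609). Male 2 itself was high for many Hox genes: 22 of 33 lay lower in all 5 others, beside 20.7% of all genes, and 1 (Hoxa4) higher, beside 14.0%. It had Hoxd9 at 16.6, Hoxa10 at 18.6 and Hoxd4 at 15.0 FPKM.

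At E10.5 the 3 libraries labelled Ret null with Ret were all of the females and the 3 without were all of the males, so Ret and the labelled sex cannot be told apart there. By sex-linked RNA 1 library of each set goes against its label: female 3, with Ret, had Ddx3y, a Y-linked gene, at 13.5 FPKM and Hoxb5 at 14.4 FPKM, and male 1, without Ret, had Xist, the RNA of the inactive X, at 66.1 FPKM and Hoxb5 at 10.8 FPKM. Hoxb5 was 8.50 to 12.3 FPKM in the labelled males without Ret, 14.4 to 15.6 FPKM in the labelled females with Ret and 5.84 to 11.7 FPKM in wild type. Hoxd3 had a median of 9.63 FPKM (lowest 8.75) in the labelled males without Ret and was 14.4 to 18.8 FPKM in the labelled females with Ret and 7.77 to 24.3 FPKM in wild type. Among labelled males alone the Hoxd3 difference from wild type was -0.98 (SE 0.224, adjusted p = 0.111).

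**Figure D5:**
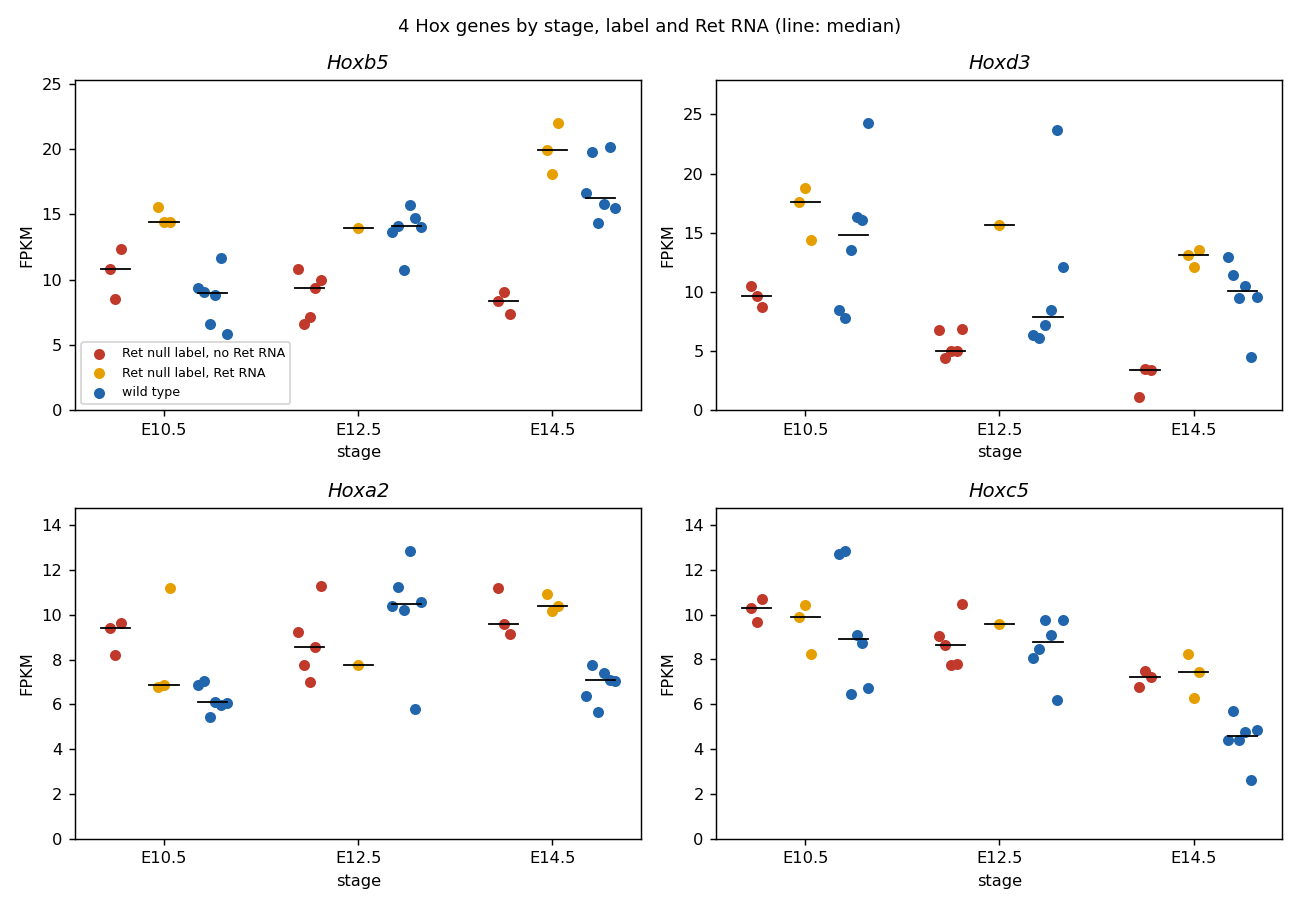
FPKM of Hoxb5, Hoxd3, Hoxa2 and Hoxc5 in each library by stage, for libraries labelled Ret null without Ret RNA, those with it, and wild type; lines are medians. At E14.5 the 3 points without Ret lie at 7.38 to 9.06 FPKM for Hoxb5 and at 1.12 to 3.50 FPKM for Hoxd3, below all others, while Hoxa2 and Hoxc5 lie above wild type in both sets labelled Ret null.

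The TALE cofactors were expressed in all groups. Of 9 tested, 7 were lower in wild type at E14.5 than at E12.5 (beside 27.9% of all genes), led by Meis2 (-1.11, SE 0.104, adjusted p = 1.01e-08) and Meis1 (-0.80, SE 0.0673, adjusted p = 2.41e-09), which carry Hox proteins to joint sites. In wild type at E12.5 against E10.5 limma called 0 of 9 (beside 4.57% of all genes). An unadjusted p under 0.05 was reached by 4 of 9, beside 2672 of the 14321 genes tested. At E14.5, 5 of 9 were higher in Ret null-labelled libraries (beside 10.9% of all genes): Meis2 (0.55, SE 0.128, adjusted p = 0.0208), Meis1 (0.37), Pbx2 (0.25), Pbx3 (0.22) and Pknox1 (0.20). Their median log2 fold change there was 0.22, beside 0.0401 over all genes. Without wild-type male 2 the counts were 5 of 9 by label and 7 of 9 by stage. Summed FPKM of the 9 was 212 to 221 in the 3 libraries without Ret, 203 to 217 in the 3 with Ret and 152 to 187 in wild type. At E10.5, 1 of 9 was lower in Ret null-labelled libraries and 0 higher (beside 2.67% and 5.61% of all genes). At E12.5 0 were called (beside 0.00759%).

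Among the 8 ParaHox and Evx genes 2 to 3 were expressed highly enough to test. Cdx2 was higher at E10.5 in Ret null-labelled libraries (6.34 to 10.3 FPKM, against 3.47 to 5.96 FPKM in wild type; 0.88, SE 0.121, adjusted p = 0.00923). Cdx1 was lower at E14.5 (1.32 to 5.60 FPKM in Ret null-labelled libraries, against 5.53 to 19.6 FPKM in wild type; -1.18, SE 0.294, adjusted p = 0.0261). Both were higher in wild type at E14.5 than at E12.5, Cdx1 by a log2 of 3.18 and Cdx2 by 1.83.

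Of 9 genes of axial signals 6 were tested at E10.5. Lin28b (-0.83) and Lin28a (-1.18), RNA-binding proteins of early embryos, were lower in Ret null-labelled libraries (beside 2.67% of all genes). At E14.5, 3 of 4 tested were higher there (beside 10.9% of all genes): Rarb, a retinoic acid receptor (0.52, SE 0.103, adjusted p = 0.0138), Aldh1a2, which makes retinoic acid (0.49, SE 0.104, adjusted p = 0.0166), and Gdf11, a ligand that favours posterior Hox genes (0.30). In wild type 5 of 6 were lower at E14.5 than at E12.5 (beside 27.9%), among them Aldh1a2 (-0.96) and Rarb (-0.82). Without wild-type male 2 these counts were again 3 of 4 and 5 of 6. Of 17 Polycomb and trithorax genes, which keep Hox clusters silent or active, 5 were higher at E14.5 in Ret null-labelled libraries (Rnf2, Cbx2, Bmi1, Ezh2 and Phc1), beside 10.9% of all genes, and 2 (Bmi1 and Ezh2) without wild-type male 2. Bmi1 had 0.37 and Ezh2 0.26. In wild type 2 of 17 were higher (beside 31.0% of all genes) and 10 lower (beside 27.9%) at E14.5 than at E12.5, among the lower Ezh2 (-0.72).

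Of 18 noncoding and microRNA genes of the clusters 11 were found, 8 of them under their own names. The others were found under synonyms (Hoxa11as, 2700086A05Rik and 1700109F18Rik), and 3 to 4 genes were tested in each comparison. By limma 0 were called by genotype at any stage. In wild type Mira, a HoxA noncoding RNA between Hoxa6 and Hoxa7 in the mouse, was lower at E14.5 than at E12.5 (-1.02, SE 0.140, adjusted p = 2.01e-06), and 2700086A05Rik, which overlaps Hoxa3, Hoxa5 and Hoxa6, was lower too (-0.70).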

How the data were processed

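Deposited values are FPKM per gene with an interval and a status, 1 file per library, on mouse build mm10. The authors made them with TopHat2, Cufflinks, Cuffdiff and Picard, per the submitters' processing notes; their versions and settings were not given in the sources used here. All value columns were mapped to a sample. Depth was read from interval widths and is approximate. Starts count from 0 in the files and from 1 here.

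FPKM was analysed as log2(FPKM + 1) with limma 3.58.1 (R 4.3.3; trended, moderated, two-sided, Benjamini-Hochberg over all genes tested, called at an adjusted p under 0.05). Genes needed 1 FPKM in 3 samples and an OK status in every library of the fit. Fold changes are on the log2(FPKM + 1) scale, which understates low genes. Genotype contrasts were fitted per stage as the mean over sexes; stage and interaction contrasts came from 1 fit of 12 groups. Pairs of libraries differing by at most 1.15 times the counting noise, with at most 1% of genes beyond 3 SD, were averaged. The plan set 1.1; 1 pair (E12.5 wild-type females 1 and 2, at 1.13) lies between, and both limits were run. Scripts were tested on simulated data. The rest used pandas 2.3.3 and numpy 2.4.6 in Python 3.11.15, and matplotlib 3.10.9.

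The genes and lists were chosen with earlier results of these data known. Named with test values are called members (beyond 12, those with the 12 largest changes), the leading gene of each paralogue group and groups 12 and 13. Other genes given with test values were not set beforehand, and only some of them are marked. Values of 2 genes are not reported or drawn here; counts, sums and shares include them. Alternatives were another pseudocount, no filter, rescaling, other fits, libraries left out and a replicate block.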

Additional observations from a re-analysis of the deposited data

Results flagged for a closer look

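Of 182 sets of samples of 1 stage and label, over 30 Hox genes and the share of groups 9 to 13, 16 held a sample far from the others of its group. Chance flags about 1 in 20 such groups.

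Among E12.5 libraries labelled Ret null, male 2, the only one with Ret RNA, stood above the rest for Hoxa10 (18.6 FPKM), Hoxa9 (8.16), Hoxd4 (15.0), Hoxd9 (16.6) and Hoxd11 (6.40). Among E14.5 libraries labelled Ret null, female 2 stood high for Hoxd13 (19.4 FPKM) and Hoxd12 (9.33) and low for Hoxd9 (1.26 FPKM), and female 3 stood high for Hoxc9 (1.60 FPKM). Among E10.5 libraries labelled Ret null, male 2 stood high for Hoxd13 (9.46 FPKM) and Hoxb13 (1.37), male 3 for Hoxa4 (22.4) and the mean of females 1 and 2 for Hoxd4 (12.2 FPKM). In wild type, E12.5 male 2 stood low for Hoxa5 (16.4 FPKM) and Hoxc4 (8.35), and E14.5 female 3 stood high for Hoxa6 (5.27 FPKM).

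The limma interaction of stage with label, Ret null or wild type, was called in 7 cases. From E10.5 to E12.5, 11.4% of tested Hox genes were called, beside 1.34% of all genes tested. From E12.5 to E14.5 it was 8.57%, beside 17.4%, so the Hox share lay below that of all genes. All calls from E10.5 to E12.5 were lost without the Ret null-labelled libraries that hold Ret. They were also lost without the libraries against their sex label, and with a replicate block. From E10.5 to E12.5 the log2 difference of changes was -0.973 for Hoxb4, -0.803 for Hoxb3, -0.708 for Hoxa3 and 1.92 for Hoxc9. From E12.5 to E14.5 it was 0.706 for Hoxa2, 0.476 for Hoxb3 and 0.458 for Hoxa3.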

How the results depend on the processing

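Of 1018 alternatives over 48 named gene results, 749 kept the call, 269 lost it and 0 reversed; 10 results kept their call throughout. Counts of Hox genes called that moved by over 1.5 times were as follows, and the cause was not tested. At E10.5 (5 by the chosen settings) the count was 2 with no filter, 12 with every library counted, 2 within females, 0 within males, 0 without the Ret null libraries that hold Ret and 0 without those against their sex label. At E14.5 (3) it was 5 with no filter, 1 within females, 0 within males and 1 without the Ret-holding libraries and Ret null female 2, and 5 without the Ret-holding libraries and wild-type male 2. In wild type E12.5 against E10.5 (11) it was 20 with every library counted, 2 without the sex mismatches and 4 in a fit of these stages alone; E14.5 against E12.5 (15) gave 8 without the mismatches. In labelled Ret null E12.5 against E10.5 (2) it was 0 without the Ret-holding libraries and 0 without the mismatches. E14.5 against E12.5 there (8) gave 13 after rescaling, 3 without the Ret-holding libraries and 16 in a fit alone. The interaction E12.5 against E10.5 (4) gave 9 with every library counted, 7 with the pair limit of 1.1, and 0 without either the Ret-holding libraries or the mismatches. E14.5 against E12.5 (3) gave 8 with every library counted, 6 with that pair limit and 1 without the mismatches.

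Leaving out 1 sample gave 1 to 11 genes at E10.5, 0 to 0 at E12.5, 2 to 5 at E14.5, 1 to 17 and 11 to 16 in the wild-type steps, 0 to 2 and 4 to 9 in the labelled Ret null steps, and 1 to 9 in each interaction. Same-numbered samples correlated at -0.292 to 0.352 over 16 pairs, 4 over 0.1. Samples of unlike number reached -0.404 and 0.407, so this check cannot tell whether the numbers pair samples. With a replicate block the counts were 0 at E10.5, 0 at E12.5, 0 at E14.5, 1 and 15 in the wild-type steps, 2 and 9 in the labelled Ret null steps, and 0 and 4 for the interactions. Depth is lowest at E14.5, where genes under 1 FPKM are least certain.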
